A study of Mus musculus with 10 samples.

Results

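The genes described here are the matrix metalloproteinases (MMPs), the ADAMTS proteases and the tissue inhibitors of metalloproteinases (TIMPs), chosen by name alone from the gene tables of stromal cells of mouse Peyer's patches. The name rule took 46 of the 47643 listed genes: 23 MMP genes, 19 ADAMTS genes and 4 TIMP genes. The cells came from C57BL/6 wild-type mice and were sorted by flow cytometry into a pair of populations that share the gate CD45-, EpCAM1-, TER119-, CD31-, Podoplanin+. MRC libraries hold the MAdCAM1+ cells (n = 5) and MCi libraries the MAdCAM1- cells (n = 5). Whether the 5 libraries of a group came from separate animals is not given in the sources used here, so p-values measure the spread between these libraries, which may be technical. Peyer's patches are the lymphoid follicles of the small intestinal wall, and their Podoplanin+ stromal cells are fibroblast-like cells that build the scaffold on which lymphocytes and antigen-presenting cells sit.

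MMPs are zinc endopeptidases that are made as inactive precursors and cut collagens, proteoglycans and other matrix proteins. They are either secreted or anchored to the cell membrane. The membrane-type enzyme MMP14, together with the inhibitor TIMP2, forms the complex that activates the gelatinase MMP2, so these 3 genes are often read together in fibroblasts. ADAMTS proteases are secreted enzymes with thrombospondin repeats. Some of them cut the large proteoglycans aggrecan and versican, some trim the amino-terminal propeptide from fibrillar procollagens, and others process fibrillin-associated or plasma proteins. TIMPs bind the active site of MMPs, and TIMP3, which is held in the matrix, also inhibits several ADAMTS enzymes.

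A block of 10 MMP genes lies in 1 cluster on chromosome 9, and their start regions differ in sequence from those of the other members. RefSeq (GRCm38.p6) gave 35 start windows for 32 of the 46 members, and 250 bases before each start were searched for 3 motifs. A gene with 2 windows, such as Mmp7 and Mmp12 in the cluster, was counted where either held the motif, whereas the shares over all genes are shares of windows. The AP-1 site (TGAGTCA or TGACTCA, which are the same site read on either strand) was present in 7 of the 10 cluster genes, Mmp1a, Mmp1b, Mmp3, Mmp7, Mmp10, Mmp12 and Mmp13, in 0 of the 22 other members with a window, and in 4.46% of 32851 windows of the same length. By window it was in 7 of the cluster's 12, and for Mmp12 it lay in the window 2993 bases from the deposited gene start and not in the nearer one. The TATA box (TATAAA on the gene's strand) was present in 7 of the 10 cluster genes and in 2 of the 22 others, Adamts1 and Mmp21, against 7.59% of all windows. The GC box (GGGCGG or CCGCCC, either strand) was present in 0 of the 10 cluster genes and in 16 of the 22 others, against 32.7% of all windows. A match is a run of letters and was not examined for binding by any factor. The 4 windows printed are shown because these genes carry the contrasts described further on: Mmp10 and Mmp3 are the cluster genes with the most reads, Mmp1a has the same pair of motifs and almost no reads, and Mmp14 stands for the windows with GC boxes. Capitals mark the motifs, and positions are counted backwards from the start, with the last base before it as -1.
Mmp10: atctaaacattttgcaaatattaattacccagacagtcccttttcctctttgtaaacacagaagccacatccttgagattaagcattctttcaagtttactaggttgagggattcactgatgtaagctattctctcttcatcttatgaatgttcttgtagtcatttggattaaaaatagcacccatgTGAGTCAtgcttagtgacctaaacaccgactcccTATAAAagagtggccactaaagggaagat
Mmp3: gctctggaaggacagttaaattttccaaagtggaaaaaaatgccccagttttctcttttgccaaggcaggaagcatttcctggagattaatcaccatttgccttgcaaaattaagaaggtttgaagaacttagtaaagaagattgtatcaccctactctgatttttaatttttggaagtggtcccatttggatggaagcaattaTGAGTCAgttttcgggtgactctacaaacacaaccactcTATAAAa
Mmp1a: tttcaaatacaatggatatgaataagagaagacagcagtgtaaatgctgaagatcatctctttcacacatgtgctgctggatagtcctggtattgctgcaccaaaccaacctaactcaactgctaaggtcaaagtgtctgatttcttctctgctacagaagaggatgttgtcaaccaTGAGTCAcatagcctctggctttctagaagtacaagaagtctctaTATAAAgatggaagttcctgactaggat
Mmp14: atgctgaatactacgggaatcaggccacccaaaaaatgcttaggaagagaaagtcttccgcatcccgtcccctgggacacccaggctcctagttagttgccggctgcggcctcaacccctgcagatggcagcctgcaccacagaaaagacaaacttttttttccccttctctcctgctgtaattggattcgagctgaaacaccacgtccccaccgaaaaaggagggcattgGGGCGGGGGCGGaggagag
The Mmp10 window spans chr9:7502092-7502341 on the plus strand, with the AP-1 site beginning at -63 and the TATA box at -29. The Mmp3 window spans chr9:7445572-7445821 on the plus strand, with the AP-1 site at -46 and the TATA box at -7. The Mmp1a window spans chr9:7463891-7464140 on the plus strand, with the AP-1 site at -73 and the TATA box at -28. The Mmp14 window spans chr14:54431348-54431597 on the plus strand and holds GC boxes at -19 and -13.

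Exon reads per library ranged from 4141949 to 7004048 in MRC and from 3941032 to 8738115 in MCi libraries. Madcam1, the sort antigen, had 44.9, 32.6, 30.4, 86.1 and 53.0 CPM (reads per 1e6) in MRC1 to MRC5, and between 0 and 2.38 CPM in the MCi libraries, in the direction of the sort. MRC4 and MRC5 stood apart from the other 8 libraries. The summed CPM of 7 epithelial genes, all 7 of them with reads, was 9.08, 183, 1907, 12959 and 16696 in MRC1 to MRC5 and ranged from 12.0 to 1069 in MCi libraries, although the gate selects EpCAM1- cells. The summed CPM of 8 fibroblast genes was 91674, 135005, 114564, 26630 and 26559 in MRC1 to MRC5 and ranged from 44869 to 76298 in MCi libraries, and the mitochondrial share of exon reads was 6.66% for MRC4 and 4.28% for MRC5, against 0.706% to 1.58% in the other libraries. For the abundant members whose values split at MRC4 and MRC5, the log2 fold change is therefore also given without them, after the single genes. The part of these values in the results was not tested. In such sorted bulk samples, fewer cells of a type and less RNA per cell cannot be told apart. Libraries 4 and 5 of both groups were also the deepest (6142562 to 8738115 exon reads, against 3941032 to 4761017 in libraries 1 to 3), and no label names a batch. MCi4 and MCi5 were the most alike of the 20 pairs within groups, yet their counts still differed by 7.77 times the sampling noise, measured as chi-square per degree of freedom, so they were kept as separate libraries.

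The set was dominated by few genes. Levels of different genes are compared as TPM, computed from exon reads and exon length. Over the 10 libraries, 9 members averaged at least 100 TPM, 14 between 10 and 100 TPM, 12 between 1 and 10 TPM and 11 under 1 TPM. The gelatinase Mmp2 led with a mean of 1992 TPM, followed by its co-activator and inhibitor Timp2 with 1430 TPM, the stromelysin Mmp10 with 1192 TPM and the activator Mmp14 with 485 TPM. Mmp3 (216 TPM), Adamts1 (205 TPM), the small membrane-anchored enzyme Mmp23 (153 TPM), Timp3 (152 TPM) and Adamts2 (125 TPM) came next. The Timp3 value is uncertain: 16.5% of its exon reads were counted as unique, and from unique reads its mean was 28.3 TPM. Timp3 lies inside Syn3, which runs on the opposite strand, and in GENCODE M21 the exons of this pair share 1733 bases. Without strand information, reads from such overlapping genes cannot be told apart.

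**Figure D1:**
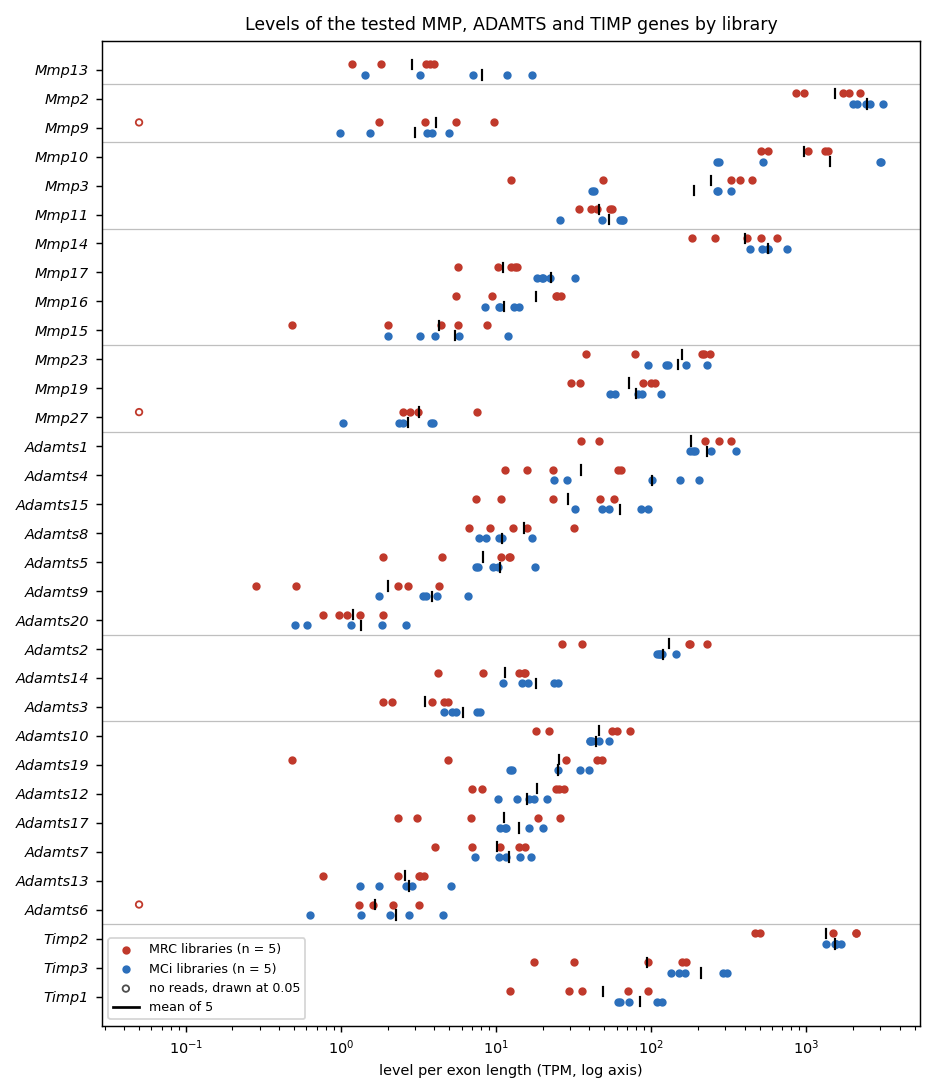
Level of each tested member in TPM (log axis) in the 5 MRC (red) and 5 MCi (blue) libraries; genes are grouped by role, black ticks are means of 5 and open circles are libraries with no reads. Mmp2, Timp2 and Mmp10 have the highest means (1992, 1430 and 1192 TPM over all 10 libraries), and for several genes 2 of the MRC points lie well left of the others.

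The summed levels of the families show how the libraries differ. The MMP genes together reached 4383, 4309, 3641, 2407 and 2636 TPM in MRC1 to MRC5, and 4164, 3483, 3713, 6487 and 7026 TPM in MCi1 to MCi5. Libraries 4 and 5 were therefore the lowest of the MRC group and the highest of the MCi group. The TIMP genes together reached 2218, 2354, 1733, 562 and 499 TPM in MRC1 to MRC5, and 1933, 1605, 1947, 1873 and 1761 TPM in MCi1 to MCi5. The ADAMTS genes together reached 725, 863, 723, 204 and 143 TPM in MRC1 to MRC5, and 764, 650, 938, 536 and 534 TPM in MCi1 to MCi5. TIMP and ADAMTS sums were thus lowest in MRC4 and MRC5 of all 10 libraries, the same libraries in which the epithelial genes were highest and the fibroblast genes lowest. The ratio of summed MMP to summed TIMP level was 1.98, 1.83, 2.10, 4.28 and 5.28 in MRC1 to MRC5 and 2.15, 2.17, 1.91, 3.46 and 3.99 in MCi1 to MCi5. It was higher in libraries 4 and 5 of both groups than in libraries 1 to 3 of either.

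**Figure D2:**
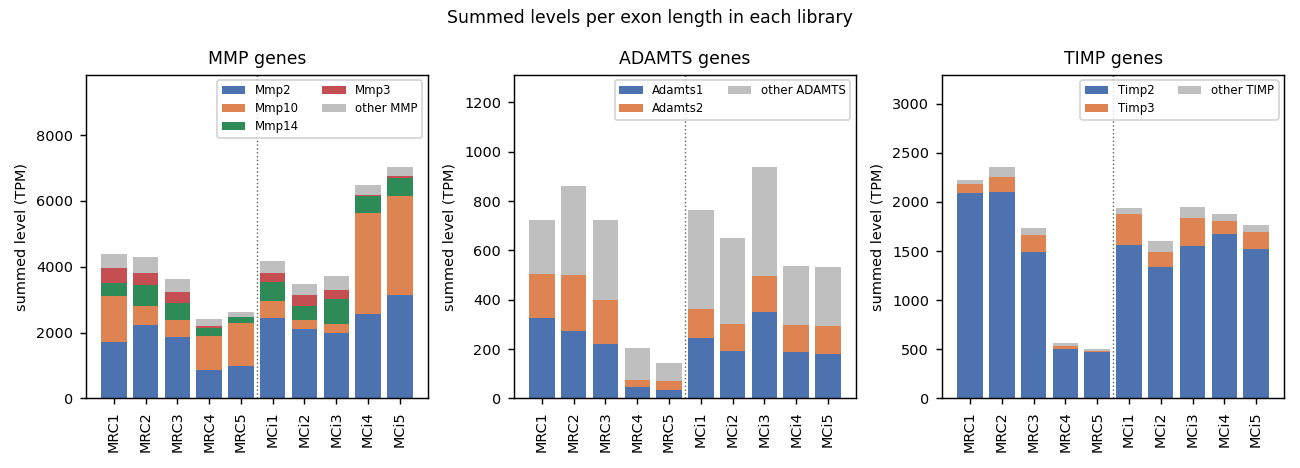
Summed TPM of the MMP, ADAMTS and TIMP genes in each library, stacked by leading gene, with MRC1 to MRC5 left and MCi1 to MCi5 right of the dotted line. Mmp10 fills 42.8% and 49.9% of the MMP sum in MRC4 and MRC5 and 47.0% and 42.8% in MCi4 and MCi5; the TIMP sum is mostly Timp2 in every library.

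The comparison of MRC with MCi cells asks whether the MAdCAM1+ population makes a different set of matrix proteases and inhibitors. With all 10 libraries it called no member. Of the 46 members, 33 had enough reads to be tested: 13 MMP, 17 ADAMTS and 3 TIMP genes. None of the 33 passed an adjusted p of 0.05 in either direction in edgeR's quasi-likelihood test, against 0.437% of all 12127 genes tested (53 genes, 9 higher and 44 lower in MRC). At an unadjusted p under 0.05 there were 2 members, Mmp16 higher and Mmp17 lower in MRC, or 2 of 33 against 16.7% of all genes, and DESeq2 called 1 member, Mmp16 (adjusted p = 0.0425), against 7.02% of all genes. The median log2 fold change (MRC minus MCi) was 0.05 over the 33 members and 0.01 over all tested genes, and 17 of the 33 members lay above 0. The CPM values of MRC and MCi libraries overlapped for every one of the 33 members, whereas 3.79% of all tested genes did not overlap. Standard errors of the members' log2 fold changes ran from 0.21 to 0.93 with a median of 0.46. A p that misses the threshold at this spread does not show that the groups are alike.

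Markers of other cell types also differed between the populations. The summed level of 7 smooth muscle and pericyte genes was 1106 to 1980 CPM in MRC and 2795 to 4675 CPM in MCi, and that of 4 enteric glia genes was 4.54 to 78.7 CPM in MRC and 107 to 357 CPM in MCi. The sum of 3 genes of interstitial cells of Cajal was 20.97 to 52.4 CPM in MRC and 59.2 to 124 CPM in MCi. In these 3 lists the sums did not overlap and every gene had reads in some library. The sum of 5 mesothelial genes did not overlap either, at 0 to 4.88 CPM in MRC and 17.7 to 730 CPM in MCi. Of these mesothelial genes, Msln, Upk3b and Gpm6a did not overlap, while Lrrn4 and Wt1 did. Of the smooth muscle and pericyte genes, Acta2, Myh11, Tagln and Kcnj8 did not overlap between the groups, while Des, Cspg4 and Rgs5 did. These sums move in the same direction as the genes given below with lower values in MRC, such as Mmp17, Adamts18, Pcsk6, Papln, Adam19 and Tnc, and their part in those values was not tested.

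**Figure D3:**
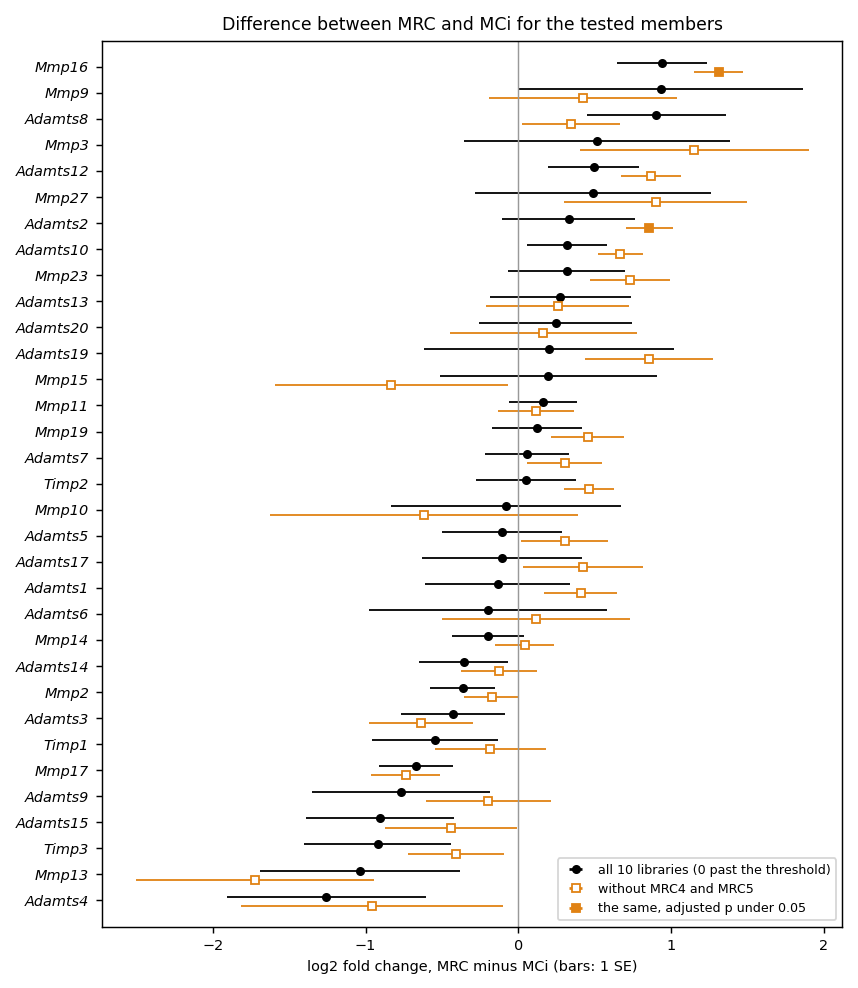
Log2 fold change (MRC minus MCi) with 1 SE for the 33 tested members, from all 10 libraries (black) and without MRC4 and MRC5 (orange; filled where the adjusted p is under 0.05). Mmp16 and Adamts2 carry filled orange squares, and most black points lie within about 1 on either side of 0.

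Gelatinases cut denatured collagen and the type IV collagen of basement membranes. Mmp2 (chromosome 8, 92827328 to 92853417) had 1801, 2279, 1986, 1256 and 1555 CPM in MRC1 to MRC5, and 2181, 2179, 1856, 2381 and 2823 CPM in MCi1 to MCi5. It was abundant in every library, and MRC4 and MRC5 were the lowest. The log2 fold change was -0.36 ± 0.21 (SE; adjusted p = 0.429). Mmp9, the inducible gelatinase of many leukocytes, was low, at 6.23 ± 7.08 CPM in MRC, against 3.29 ± 1.84 CPM in MCi (SD, n = 5 each). It had no read in MRC4 and 18.1 CPM in MRC5. The summed level of the 4 leukocyte genes was highest in MRC5 (56.4 CPM) and next highest in MRC4 (19.2 CPM). The part of leukocyte RNA in the Mmp9 reads was not tested.

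Membrane-type MMPs work at the cell surface, and the 2 members with the smallest unadjusted p belong here. Mmp16 encodes a transmembrane enzyme that can activate MMP2 (chromosome 4, 17852893 to 18119145). It had 78.3, 72, 73.0, 39.8 and 25.2 CPM in MRC1 to MRC5, and 35.8, 25.0, 28.2, 34.2 and 26.7 CPM in MCi1 to MCi5. MRC1 to MRC3 were at about the same level and above every MCi library, MRC4 was just above them and MRC5 lay among them. The log2 fold change was 0.94 ± 0.30 (SE; adjusted p = 0.194). Mmp17 encodes an enzyme attached by a lipid anchor (chromosome 5, 129584169 to 129611099). It had 23.4, 30.6, 28.8, 42.2 and 19.7 CPM in MRC1 to MRC5, and 36.0, 49.9, 65.6, 39.6 and 39.6 CPM in MCi1 to MCi5. MRC4 alone reached the MCi range, and the log2 fold change was -0.67 ± 0.24 (SE; adjusted p = 0.23).

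Mmp14 (chromosome 14, 54431612 to 54441265), the most abundant membrane-type gene here, had 457, 699, 569, 404 and 308 CPM in MRC1 to MRC5, and 540, 476, 732, 507 and 542 CPM in MCi1 to MCi5. The groups overlapped, with a log2 fold change of -0.20 ± 0.24 (SE; adjusted p = 0.737). Mmp15 averaged 8.12 ± 6.90 CPM in MRC, against 7.22 ± 5.13 CPM in MCi (SD, n = 5 each). Mmp24 (15 reads in MRC, 13 in MCi) and Mmp25 (1 read in MRC, 12 in MCi) were too low to test.

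The chromosome 9 cluster spans 427 kb from Mmp13 to Mmp7 (7272514 to 7699585) and holds interstitial collagenases, stromelysins, matrilysin and macrophage elastase. Its genes ranged from among the most abundant in the set to silent, although 7 of the 10 genes have a window with the AP-1 letters. Mmp10 alone took 87.6% of the cluster's reads. Mmp1a, whose window holds the AP-1 and TATA letters as those of Mmp10 and Mmp3 do, had 2 reads in the MRC libraries together and 0 in the MCi libraries. Mmp1b had 0 reads in all 10 libraries, where a floor of 3 reads lies between 0.343 and 0.761 CPM per library on unscaled totals of exon reads. Mmp20, the enzyme of tooth enamel, had 1 read in MRC and 0 in MCi, and 4 of the 10 cluster genes passed the filter for testing.

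Mmp10 (chromosome 9, 7502352 to 7510238) encodes stromelysin-2, which cuts proteoglycans and fibronectin and activates other MMPs. It had 811, 329, 305, 857 and 1190 CPM in MRC1 to MRC5, and 268, 160, 139, 1592 and 1535 CPM in MCi1 to MCi5. The high libraries were numbers 4 and 5 of both groups together with MRC1. Mmp3 (chromosome 9, 7445822 to 7455972) encodes stromelysin-1 and ends 46380 bases before Mmp10 begins. It had 277, 227, 206, 42.7 and 11.7 CPM in MRC1 to MRC5, and 142, 200, 148, 22.9 and 22.9 CPM in MCi1 to MCi5. Libraries 4 and 5 of both groups were the lowest for Mmp3, while MRC1 to MRC3 stood in the same order for both genes. For Mmp10, the mean of libraries 4 and 5 was 2.13-fold that of libraries 1 to 3 in MRC cells and 8.28-fold in MCi cells. For Mmp3, the mean of libraries 1 to 3 was 8.70-fold that of libraries 4 and 5 in MRC cells and 7.13-fold in MCi cells. Depth differs between the same sets of libraries, and its part in this was not tested. Between the populations the log2 fold change was -0.08 ± 0.75 for Mmp10 (SE; adjusted p = 0.975) and 0.52 ± 0.87 for Mmp3 (SE; adjusted p = 0.827).

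Mmp13, collagenase-3, was low: 1.67, 3.37, 1.09, 5.19 and 4.97 CPM in MRC1 to MRC5, and 1.13, 6.43, 2.63, 9.56 and 13.6 CPM in MCi1 to MCi5, a log2 fold change of -1.03 ± 0.66 (SE; adjusted p = 0.467). Libraries 4 and 5 were again the highest of the MCi group. Mmp27 averaged 2.58 ± 2.06 CPM in MRC, against 1.85 ± 0.77 CPM in MCi (SD, n = 5 each). Outside the cluster, stromelysin-3 (Mmp11) varied little, at 46.8 ± 6.02 CPM in MRC, against 41.8 ± 11.8 CPM in MCi (SD, n = 5 each). Mmp19 averaged 91.2 ± 32.8 CPM in MRC, against 83.8 ± 26.0 CPM in MCi. Mmp23 (chromosome 4, 155650655 to 155653384) had 176, 188, 174, 89.3 and 46.9 CPM in MRC1 to MRC5, and 88.8, 134, 164, 88.4 and 66.3 CPM in MCi1 to MCi5. MRC1 to MRC3 lay above every MCi library, and MRC5 lay below them (log2 fold change 0.32 ± 0.38, SE; adjusted p = 0.737).

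The aggrecanases and proteoglycanases were all 7 tested, and none was called. Adamts1 (chromosome 16, 85793827 to 85803113), which cuts aggrecan and versican, had 595, 486, 409, 119 and 97.7 CPM in MRC1 to MRC5, and 381, 343, 568, 302 and 281 CPM in MCi1 to MCi5. The MRC group held both the highest and the lowest libraries (log2 fold change -0.14 ± 0.48, SE; adjusted p = 0.925). Adamts4 (chromosome 1, 171250421 to 171260637), an aggrecanase, had 26.3, 104, 102, 54.5 and 28.8 CPM in MRC1 to MRC5, and 288, 164, 226, 41.7 and 33.8 CPM in MCi1 to MCi5. MCi1 to MCi3 lay above every MRC library, whereas MCi4 and MCi5 lay inside the MRC range. The log2 fold change was -1.26 ± 0.65 (SE; adjusted p = 0.37).

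Adamts15 (chromosome 9, 30899155 to 30922452), a versican-cutting enzyme, had 47.5, 115, 96.3, 31.0 and 23.0 CPM in MRC1 to MRC5, and 56.1, 192, 157, 87.3 and 94.1 CPM in MCi1 to MCi5. It was lowest in MRC4 and MRC5 (log2 fold change -0.91 ± 0.48, SE; adjusted p = 0.378). Adamts8, its neighbour (chromosome 9, 30942562 to 30963838), had 25.1, 14.2, 20.5, 70.8 and 16.3 CPM in MRC1 to MRC5, and 10.6, 26.6, 15.3, 12.0 and 14.3 CPM in MCi1 to MCi5. MRC4 alone decided the difference: the log2 fold change was 0.90 ± 0.46 (SE; adjusted p = 0.355), and 0.28 ± 0.30 without MRC4 (SE; adjusted p = 0.767). Adamts5 averaged 24.5 ± 11.3 CPM in MRC, against 26.3 ± 10.6 CPM in MCi, and Adamts9 averaged 9.01 ± 6.65 CPM in MRC, against 15.3 ± 7.85 CPM in MCi (SD, n = 5 each). Adamts20 averaged 4.33 ± 1.29 CPM in MRC, against 3.71 ± 2.36 CPM in MCi.

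The procollagen N-proteinases trim fibrillar procollagens so that fibrils can form. Adamts2 (chromosome 11, 50602084 to 50807573) had 561, 724, 582, 121 and 175 CPM in MRC1 to MRC5, and 324, 348, 412, 318 and 318 CPM in MCi1 to MCi5. All 5 MCi libraries lay between the high MRC1 to MRC3 and the low MRC4 and MRC5 (log2 fold change 0.33 ± 0.44, SE; adjusted p = 0.767). Col1a1, which encodes a chain of its substrate procollagen, split the same way, with the 3 high and the 2 low MRC libraries the same. Adamts14 averaged 22.5 ± 6.84 CPM in MRC, against 28.8 ± 8.85 CPM in MCi, and Adamts3 averaged 7.61 ± 3.48 CPM in MRC, against 10.3 ± 2.29 CPM in MCi (SD, n = 5 each).

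Of the other ADAMTS genes, Adamts10, which acts on fibrillin microfibrils, averaged 92.9 ± 36.0 CPM in MRC, against 74.4 ± 9.04 CPM in MCi (SD, n = 5 each). Adamts12 (chromosome 15, 11064790 to 11346867) had 51.8, 57.2, 55.3, 24.6 and 23.0 CPM in MRC1 to MRC5, and 39.0, 21.7, 30.9, 33.4 and 25.4 CPM in MCi1 to MCi5. MRC1 to MRC3 lay above the MCi libraries, and MRC4 and MRC5 among them (log2 fold change 0.49 ± 0.30, SE; adjusted p = 0.442). Adamts19 averaged 41.2 ± 34.5 CPM in MRC, against 36.0 ± 18 CPM in MCi and was lowest in libraries 4 and 5 of both groups, at 11 and 1.19 CPM in MRC and 17.3 and 17.5 CPM in MCi. Adamts17 averaged 31.4 ± 25.9 CPM in MRC, against 33.9 ± 10.8 CPM in MCi. Adamts7 averaged 24.1 ± 7.67 CPM in MRC, against 23.1 ± 6.27 CPM in MCi. Adamts13, the protease that cuts von Willebrand factor in plasma, averaged 5.00 ± 2.29 CPM in MRC, against 4.09 ± 2.07 CPM in MCi. Adamts6 averaged 2.95 ± 1.96 CPM in MRC, against 3.36 ± 2.18 CPM in MCi.

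Of the inhibitors, Timp2 (chromosome 11, 118301069 to 118355740) was the most abundant. It had 2788, 2755, 2025, 944 and 961 CPM in MRC1 to MRC5, and 1799, 1768, 1843, 1983 and 1763 CPM in MCi1 to MCi5. The MCi libraries were nearly level, while MRC1 to MRC3 lay above all of them and MRC4 and MRC5 below all of them (log2 fold change 0.05 ± 0.33, SE; adjusted p = 0.963). Timp3 (chromosome 10, 86300372 to 86349506) had 265, 437, 474, 125 and 75.1 CPM in MRC1 to MRC5, and 741, 415, 719, 332 and 398 CPM in MCi1 to MCi5. Its log2 fold change was -0.92 ± 0.48 (SE; adjusted p = 0.372), and -1.04 ± 0.70 from unique reads (SE; adjusted p = 0.495). Timp1, an inhibitor induced by many cytokines (chromosome X, 20870166 to 20874735), had 11, 28.8, 21.8, 12.8 and 5.76 CPM in MRC1 to MRC5, and 16, 35.5, 29.4, 17.0 and 19.0 CPM in MCi1 to MCi5 (log2 fold change -0.55 ± 0.41, SE; adjusted p = 0.552). Timp4 had 5 reads in MRC and 10 in MCi and was not tested. Timp1, Timp3 and Timp4 each lie inside a synapsin gene (Syn1, Syn3 and Syn2) on the opposite strand.

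Without MRC4 and MRC5, a choice made after seeing the data, 34 members were tested and 2 were higher in MRC, against 0.379% of all genes called higher; 0 were lower, against 0.653%. Mmp16 rose in MRC1 to MRC3 by 1.31 ± 0.16 on the log2 scale (SE; adjusted p = 0.00572). Adamts2 rose by 0.86 ± 0.15 (SE; adjusted p = 0.0294). Adamts12 (0.87 ± 0.20, SE; adjusted p = 0.0788) and Adamts10 (0.67 ± 0.15, SE; adjusted p = 0.0768) missed the threshold. At an unadjusted p under 0.05 there were 8 members, 6 higher and 2 lower, against 11.9% of all genes. The 2 lower were Mmp17 and Adamts18. Adamts18 had 1 read in MRC1 and 0 in MRC2 and MRC3. It passed the filter only through MCi libraries, so nothing is read from its p. MRC1 to MRC3 lay above all 5 MCi libraries for 7 members (Mmp3, Mmp16, Mmp23, Adamts2, Adamts10, Adamts12 and Timp2), against 4.63% of all tested genes, and below them for 1, Mmp17, against 4.94%. The summed fibroblast genes also lay higher in MRC1 to MRC3 (91674 to 135005 CPM) than in MCi libraries (44869 to 76298 CPM), and the part of this in the higher values was not tested. With libraries 1 to 3 of each group, Mmp16 was still called higher (1.33 ± 0.20, SE; adjusted p = 0.0166; 0.236% of all genes called higher), while Adamts2 was not.

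The other members named with values in every library were not called without MRC4 and MRC5, and several moved. The log2 fold change of Timp2 was then 0.46 ± 0.16 (SE; adjusted p = 0.254), that of Timp3 was -0.41 ± 0.32 (SE; adjusted p = 0.675) and that of Timp1 was -0.18 ± 0.36 (SE; adjusted p = 0.891). Timp1 and Timp3 were thus closer to 0 than with all libraries. Mmp2 was at -0.17 ± 0.18 (SE; adjusted p = 0.768), Mmp14 at 0.04 ± 0.19 (SE; adjusted p = 0.955) and Mmp17 at -0.74 ± 0.23 (SE; adjusted p = 0.184). Mmp3 was at 1.15 ± 0.75 (SE; adjusted p = 0.623), Mmp10 at -0.62 ± 1.01 (SE; adjusted p = 0.867) and Mmp23 at 0.73 ± 0.26 (SE; adjusted p = 0.27). Mmp3 and Mmp23 lay further above 0 than with all libraries. This fit kept MCi4 and MCi5, so it is not balanced by library set, and these shifts hold differences between the sets too. Within libraries 1 to 3, the mean of Mmp3 was 237 CPM in MRC and 163 CPM in MCi. That of Mmp23 was 179 CPM in MRC and 129 CPM in MCi. With libraries 1 to 3 of each group, the log2 fold change of Mmp10 was 1.35. Adamts1 was at 0.41 ± 0.24 (SE; adjusted p = 0.567), Adamts4 at -0.96 ± 0.86 (SE; adjusted p = 0.73) and Adamts15 at -0.44 ± 0.43 (SE; adjusted p = 0.755).

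In libraries 4 and 5 alone, the picture turned. This fit holds only a pair of libraries per group, and MCi4 and MCi5 were the most alike of all pairs within groups. Its standard errors and calls rest on the spread within these pairs. Of 37 members tested there, 10 were called lower in MRC, against 10.7% of all genes, and 1 was called higher, against 15.5%. Of those called lower, 9 had at least 10 reads in every one of the 4 libraries (Adamts1, Adamts2, Adamts9, Adamts15, Adamts17, Mmp2, Mmp10, Timp2 and Timp3). The shares over all genes carry no such limit on reads. The remaining calls were Adamts18, lower, and Mmp7, higher. Each of this pair reached 10 reads in both libraries of its higher group only, so nothing is read from either call. Timp2 there was -1.04 ± 0.16 (SE; adjusted p = 0.00656) and Mmp2 was -0.96 ± 0.18 (SE; adjusted p = 0.0145). Mmp16 was at 0.04 ± 0.33 (SE; adjusted p = 0.947). This comparison sets the pair of MRC libraries with high epithelial sums (12959 and 16696 CPM) against MCi4 and MCi5 (868 and 851 CPM), and the part of that in these calls was not tested. With the library set (1 to 3, or 4 and 5) as a covariate over all 10 libraries, 0 of 33 members were called, against 1.7% of all genes, and 4 had an unadjusted p under 0.05, against 18.3% of all genes.

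**Figure D4:**
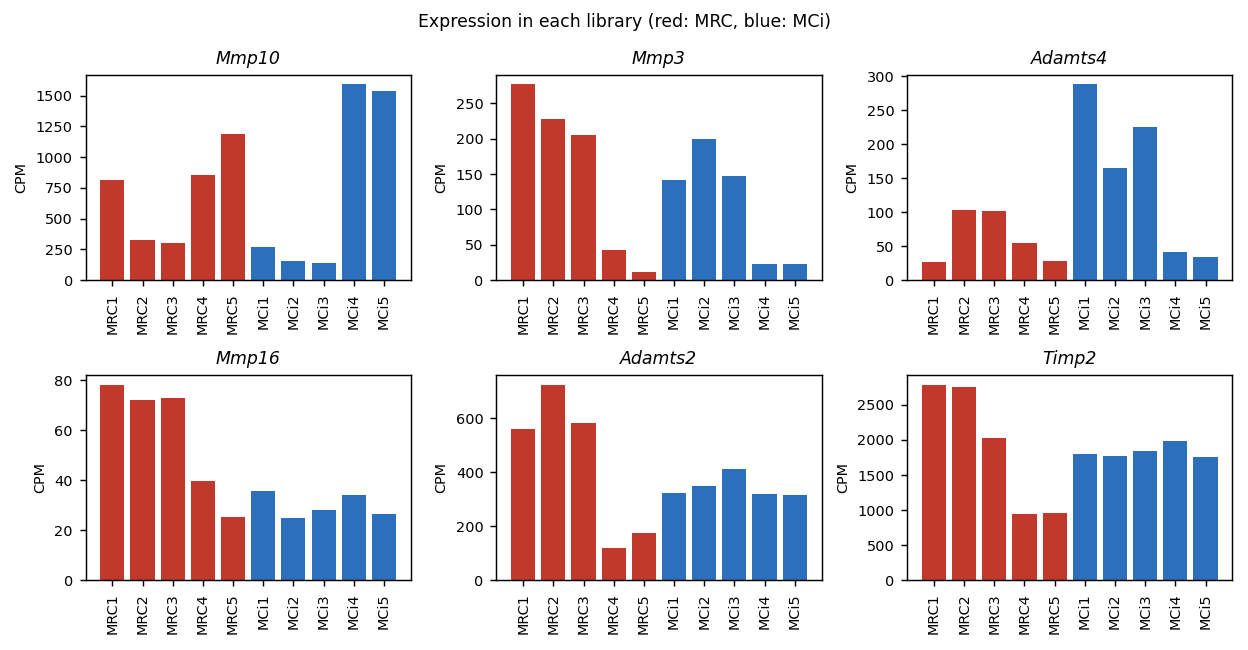
CPM of 6 members in each library, MRC1 to MRC5 in red and MCi1 to MCi5 in blue. Mmp10 is high in libraries 4 and 5 of both groups, Mmp3 is low there, and Mmp16, Adamts2 and Timp2 are higher in MRC1 to MRC3 than in all MCi libraries.

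The 13 members with low counts were not tested in the main comparison of all 10 libraries. A few of these were uneven between the groups, and they are named after their values were seen. Adamts18 had 0.239, 0, 0, 0 and 0 CPM in MRC1 to MRC5, and 4.28, 0, 3.83, 4.29 and 3.11 CPM in MCi1 to MCi5. That is 1 read in MRC against 96 in MCi, a ratio of MCi over MRC of 76.9 with an exact 95% interval of 13.5 to 3067 that covers counting error only. MCi2, which also had no read, was the exception among the MCi libraries.

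Mmp8, the collagenase stored in neutrophils, had 7 reads in MRC and 57 in MCi, a ratio of MCi over MRC of 6.52 (2.97 to 16.9, counting error only). The 6 neutrophil genes fixed as markers include Mmp8 itself and Mmp9, and all had reads in some library. Their sum ranged from 0.157 to 19.3 CPM in MRC and from 3.94 to 20.1 CPM in MCi, and the MRC maximum, in MRC5, was mostly Mmp9 (18.1 CPM). Mmp9 had 147 reads in MRC and 89 in MCi. The other 4 had more reads in MCi: S100a8 had 3 in MRC and 57 in MCi, S100a9 had 5 in MRC and 51 in MCi, Csf3r had 2 in MRC and 21 in MCi, and Ly6g had 0 in MRC and 5 in MCi. The part of neutrophil RNA in the Mmp8 reads was not tested.

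Mmp7 encodes matrilysin, which activates the defensins of mouse Paneth cells. It had 0, 17.1, 0, 13.2 and 7.15 CPM in MRC1 to MRC5, and 1.58, 0.222, 0.718, 0.277 and 1.04 CPM in MCi1 to MCi5. The reads came from MRC2, MRC4 and MRC5, and MRC1 and MRC3 had no read, so the ratio of MRC over MCi of 10.1 (6.53 to 16.3, counting error only) does not hold across the group. Lyz1, the Paneth cell lysozyme, had 11.5, 353, 9.61, 235 and 48.3 CPM in MRC1 to MRC5 and between 1.55 and 32.1 CPM in MCi libraries. Defa24, a defensin, had 13.9, 334, 15.3, 486 and 151 CPM in MRC1 to MRC5 and between 5.76 and 61.7 CPM in MCi libraries. Among MRC libraries, those with Mmp7 reads were the highest in Lyz1 and Defa24, but not in Reg3g, which had 0.717, 108, 1848, 698 and 1051 CPM in MRC1 to MRC5. The summed level of the 5 Paneth cell genes, which include Mmp7 itself, ranged from 26.5 to 1874 CPM in MRC and from 36.0 to 2185 CPM in MCi. The highest MRC sum was that of MRC3, which had no Mmp7 read, and it was mostly Reg3g. The part of Paneth cell RNA in the Mmp7 reads was not tested.

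**Figure D5:**
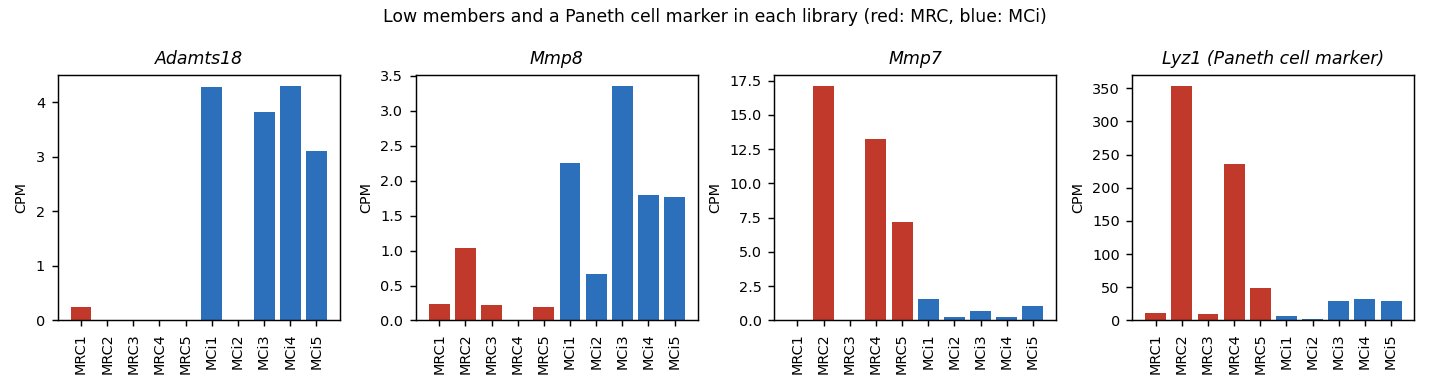
CPM of Adamts18, Mmp8, Mmp7 and the Paneth cell gene Lyz1 in each library, MRC1 to MRC5 in red and MCi1 to MCi5 in blue. Adamts18 is present in 4 of 5 MCi libraries and nearly absent from MRC; Mmp7 and Lyz1 are both highest in MRC2 and MRC4.

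The remaining untested members were Mmp28, with 46 reads in MRC and 26 in MCi, Mmp12, macrophage elastase, with 14 reads in MRC and 8 in MCi, Mmp21 with 0 in MRC and 2 in MCi, and Adamts16 with 0 in MRC and 4 in MCi. Mmp12 shares 157 exon bases with Mmp1b on the opposite strand. Mmp1a, Mmp1b, Mmp20, Mmp21 and Adamts16, 5 members, had fewer than 5 reads in all libraries together.

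Genes that act on these proteases were read from fixed lists in the same test. Over all 12127 genes tested, 0.437% were called in either direction, and this share stands beside the counts with all 10 libraries in each list below. Of 6 other inhibitors and clearance genes, all tested, 1 was called higher in MRC. A2m, which encodes the protease trap alpha-2-macroglobulin, had 8.84, 13.7, 13.1, 12.4 and 16.1 CPM in MRC1 to MRC5, and 1.35, 2.44, 1.68, 0.970 and 1.56 CPM in MCi1 to MCi5. Every MRC library, MRC4 and MRC5 included, lay above every MCi library, and the gene rose by 3.0 ± 0.33 on the log2 scale (SE, adjusted p = 0.0044). Its MCi values were low, where a floor of 3 reads lies between 0.343 and 0.761 CPM on unscaled totals of exon reads. The gene passed the filter through the MRC libraries, so nothing further is read from the call. Tfpi2, a Kunitz-type inhibitor, averaged 20.1 ± 10.2 CPM in MRC, against 8.57 ± 4.65 CPM in MCi (SD, n = 5 each; adjusted p = 0.252).

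Of 11 activators of MMP precursors, 8 were tested and 0 called in either direction with all 10 libraries. The one with the smallest p was Pcsk6, a proprotein convertase, with 166, 172, 154, 31.8 and 31.4 CPM in MRC1 to MRC5, and 396, 383, 505, 400 and 413 CPM in MCi1 to MCi5. No MRC library reached the lowest MCi library, MRC4 and MRC5 were far below MRC1 to MRC3, and the log2 fold change was -1.92 ± 0.49 (SE; adjusted p = 0.131). Without MRC4 and MRC5 it fell by 1.35 ± 0.15 on the log2 scale in MRC (adjusted p = 0.00314). Pcsk7, a related convertase, averaged 48.6 ± 21.6 CPM in MRC, against 33.7 ± 1.81 CPM in MCi (adjusted p = 0.364).

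Of the 7 ADAMTS-like genes, whose products lack the protease domain, 7 were tested and 0 called. Adamtsl5 averaged 59.7 ± 10.4 CPM in MRC, against 29.4 ± 7.24 CPM in MCi (SD, n = 5 each; adjusted p = 0.0658). Papln, which encodes papilin, averaged 2.10 ± 1.93 CPM in MRC, against 16 ± 8.79 CPM in MCi (adjusted p = 0.0689). Without MRC4 and MRC5 it was called lower (log2 fold change -3.57 ± 0.58, SE, adjusted p = 0.0192). Its values in MRC1 to MRC3 were 1.19, 1.04 and 1.75 CPM. It passed the filter only through MCi libraries, so nothing is read from this call. Of 9 ADAM sheddases, 6 were tested and 0 called. Adam19 averaged 31.4 ± 20.5 CPM in MRC, against 109 ± 67.7 CPM in MCi (adjusted p = 0.174), and Adam12 averaged 11.9 ± 11.4 CPM in MRC, against 34.4 ± 18.9 CPM in MCi (adjusted p = 0.243).

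Of 18 matrix substrates, 16 were tested and 0 called. Tnc, which encodes tenascin-C, averaged 771 ± 314 CPM in MRC, against 1779 ± 486 CPM in MCi (SD, n = 5 each), a log2 fold change of -1.21 ± 0.31 (SE; adjusted p = 0.137). Col3a1 had a log2 fold change of 0.65 ± 0.48 (SE; adjusted p = 0.544). Without MRC4 and MRC5, 9 of the 16 substrates had an unadjusted p under 0.05, against 11.9% of all genes in that fit, and 0 passed the adjusted threshold, with Col3a1 at 1.17 ± 0.27 (SE; adjusted p = 0.0826) and Col1a1 at 1.26 ± 0.29 (SE; adjusted p = 0.0861).

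The calls on these lists depended on the test. With DESeq2 over all 10 libraries, 6 of the 43 listed genes tested were called, against 7.02% of all genes, and the same 6 were called with the library set as a covariate, against 1.7%. A2m and Adamtsl5 were higher in MRC in both, and Pcsk6, Papln, Adam19 and Tnc were lower in both. A2m and Papln each passed the filter through the group where they were higher, so nothing further is read from their calls. For Adamtsl5 the log2 fold change was 1.05 ± 0.24 with DESeq2 (SE; adjusted p = 0.00066) and 1.05 ± 0.21 with the covariate (SE; adjusted p = 0.0325). Adam19 was at -1.79 ± 0.51 with DESeq2 (SE; adjusted p = 0.0123) and -1.95 ± 0.32 with the covariate (SE; adjusted p = 0.014). Tnc was at -1.19 ± 0.31 with DESeq2 (SE; adjusted p = 0.00511) and -1.28 ± 0.24 with the covariate (SE; adjusted p = 0.0248). Without MRC4 and MRC5, Adamtsl5 (adjusted p = 0.0956), Adam19 (adjusted p = 0.317) and Tnc (adjusted p = 0.159) missed the threshold in edgeR's quasi-likelihood test.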

How the data were processed

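RNA of sorted mouse cells was amplified as cDNA with the SMART-Seq v4 kit, per the labels' protocols, and the authors deposited 1 table per library with exon read counts per gene on GRCm38, per the submitters' processing notes. No source used here names the counting tool. Tests ran on total exon reads, as deposited counts, with unique exon reads as an alternative; the exon length column of the deposited tables gave the other unit, bases. Genes were filtered (filterByExpr, minimum count 10, minimum total 15), scaled by TMM and tested with edgeR 4.0.16 (glmQLFit robust, glmQLFTest; limma 3.58.1, R 4.3.3) on 5 MRC and 5 MCi libraries, with Benjamini-Hochberg adjustment over 12127 genes and a threshold of 0.05. In edgeR fits the standard error is the size of the log2 fold change divided by the root of F. For DESeq2 it is the standard error that DESeq2 reports. CPM used TMM-scaled totals of tested genes. TPM used exon reads over exon length, unscaled by TMM. The floor was 3 reads. Intervals of read ratios are exact and cover counting error only. The test was tested on simulated counts with known changes. Overlaps were read from GENCODE M21 and start windows from RefSeq.

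All 46 members are accounted for. Values in every library were to be given for any member past the threshold, the 8 with the highest TPM, the 8 with the smallest p and the TIMPs; of each fixed list, the genes past the threshold and up to 2 with the smallest p. Further members were chosen after their values were seen. Members and lists were chosen with earlier results of these data known. Alternatives were DESeq2 1.42.0, other scaling, filters, unique reads, a replicate block, a threshold of 0.01, leaving out each library, and, added after seeing the data, leaving out MRC4 and MRC5, each library set alone and the set as a covariate.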

Additional observations from a re-analysis of the deposited data

Results flagged for a closer look

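In 6 of 62 groups of 5 libraries examined over 31 named members, 1 library lay far from the other 4. The limit used is met in about 1 in 20 groups of normally distributed values. That rate does not hold for counts near the floor, where few reads can meet the limit. Adamts18 in MRC1 (1 read), Mmp8 in MRC2 (4 reads) and Mmp12 in MRC3 (12 reads) are such cases, so no excess over chance is read from the 6. Adamts8 stood at 70.8 CPM in MRC4, the highest of the MRC libraries. Adamts18 stood at 0.239 CPM in MRC1, the 1 MRC library with a read, and at 0 CPM in MCi2, the lowest of the MCi libraries. Mmp8 reached 1.04 CPM in MRC2, the highest of the MRC libraries. Mmp12 reached 2.62 CPM in MRC3, the highest of the MRC libraries. Mmp14 reached 732 CPM in MCi3, the highest of the MCi libraries.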

How the results depend on the processing

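The main count was 0 members in either direction. Members higher in MRC numbered 1 with DESeq2, 2 without MRC4 and MRC5, 1 in libraries 1 to 3 and 1 in libraries 4 and 5. Members lower in MRC numbered 10 in libraries 4 and 5 and 0 to 1 when 1 library was left out; Adamts18, among these in libraries 4 and 5 and the 1 without MCi2, passed the filter there only through MCi libraries. Of all genes, 53 were called, against 12 at a threshold of 0.01, 851 with DESeq2, 16 to 49 when 1 library was left out, 128 without MRC4 and MRC5, 95 in libraries 1 to 3, 3460 in libraries 4 and 5, 206 with the library set as a covariate, and 188 with unique reads and that covariate. Upper-quartile factors moved the median log2 fold change of all genes by -0.10. The sign of a log2 fold change turned for members that were not called with all libraries, and the cause was not tested. Without MRC4 and MRC5 it turned for Adamts1 (0.41), Adamts5 (0.30), Adamts17 (0.43), Mmp14 (0.042) and Mmp15 (-0.83). In libraries 1 to 3 it turned for Adamts1 (0.21), Adamts5 (0.14), Adamts17 (0.21), Mmp10 (1.35) and Mmp15 (-1.28). In libraries 4 and 5 it turned for Adamts4 (0.089), Adamts10 (-0.42), Adamts12 (-0.37), Adamts19 (-1.53), Mmp11 (-0.084), Mmp19 (-0.11), Mmp23 (-0.24) and Timp2 (-1.04). With the covariate it turned for Adamts19 (-0.29), Mmp10 (0.58) and Timp2 (-0.094), and with unique reads and the covariate for Adamts19 (-0.24), Mmp10 (0.61) and Timp2 (-0.057). Upper-quartile factors turned Timp2 (-0.012). Leaving out 1 library gave ranges across 0 for Adamts1 (-0.44 to 0.10), Adamts5 (-0.25 to 0.16), Adamts17 (-0.60 to 0.12), Adamts19 (-0.15 to 0.51), Mmp9 (-0.012 to 1.26), Mmp10 (-0.36 to 0.41), Mmp15 (-0.36 to 0.69), Mmp19 (-0.021 to 0.30) and Timp2 (-0.14 to 0.22).

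The groups share replicate numbers 1 to 5, but the numbers were not shown to pair the libraries: same-numbered deviations correlated at 0.56, -0.25, 0.06, 0.35 and 0.49, and not every library correlated best with its own number. With the replicate block 49 genes and 0 members were called, and Adamts19 (-0.41), Mmp10 (0.51), Mmp15 (-0.0033) and Timp2 (-0.10) turned sign. At this depth members with under about 1 CPM cannot be compared, and 5 libraries a group with 2 that stand apart limit the precision of the rest.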

Other observations

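Of the members' exon reads, the share of the whole library was 0.812%, 0.853%, 0.737%, 0.412% and 0.396% in MRC1 to MRC5, and 0.800%, 0.737%, 0.807%, 0.893% and 0.925% in MCi1 to MCi5. The summed level of 5 mesothelial genes ranged from 0 to 4.88 CPM in MRC and from 17.7 to 730 CPM in MCi, and within MCi it was highest in MCi4 (691 CPM) and MCi5 (730 CPM), the MCi libraries with the most Mmp10 and Mmp13. MRC4 and MRC5 had high Mmp10 with mesothelial sums of 4.88 and 2.38 CPM. The part of mesothelial RNA in the MCi values was not tested.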
